A study of Mus musculus with 20 samples.

Results

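The smooth muscle contractile genes are 10 genes of the machinery with which a smooth muscle cell shortens: Acta2, Actg2, Myh11, Tagln, Des, Cnn1, Smtn, Lmod1, Synpo2 and Mylk. They were taken by name from the gene-level table of estimated counts, which holds 35204 genes, and all 10 were present and passed the filter on low counts together with 16306 genes in all. They were followed in 20 pieces of terminal ileum, 1 from each of 20 C57Bl6 mice, in 4 groups of 5. The mice were females of 7 weeks and ate 1 of 2 amino acid diets for 3 weeks, either a complete control diet (CD) or the same diet without tryptophan (TDD). The SPF groups CD and TDD kept their microbiota, and the groups CD+ABX and TDD+ABX drank ampicillin, vancomycin, gentamycin, metronidazole and neomycin. The labels name no transgene or deletion, and all 4 groups ate a defined amino acid diet. The RNA came from a short piece cut near the cecum, opened, washed and frozen, with no separation of layers described. Whether muscle coat or Peyer's patches were trimmed from any piece is not stated, which limits what the muscle level of a mouse can be taken to measure. The poly-A libraries held 36676963 to 58662617 estimated counts per mouse. Mice are named here by group and number.

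The wall of the ileum has an inner circular and an outer longitudinal coat of smooth muscle, with the myenteric plexus between them and a thin muscularis mucosae under the crypts. When calcium rises in these cells, the kinase encoded by Mylk becomes active, phosphorylates the light chains of the smooth muscle myosin and lets its heavy chain, the product of Myh11, pull on filaments of the actins encoded by Acta2 and Actg2. Calponin (Cnn1), transgelin (Tagln), smoothelin (Smtn) and leiomodin (Lmod1) bind or build these filaments. Synaptopodin 2 (Synpo2) and desmin (Des) belong to the dense bodies and intermediate filaments that hold the filaments in place. Actg2 is the actin of visceral smooth muscle, while Acta2 is also made by pericytes, vascular smooth muscle and myofibroblasts. In a bulk piece of gut, fewer muscle cells and less of these RNAs per muscle cell cannot be told apart.

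On the GRCm38 genome, in the GENCODE annotation Acta2 spans chr19:34241090-34255590, Actg2 chr6:83512905-83536265, Myh11 chr16:14194535-14291372 and Mylk chr16:34745210-35002420. Tagln lies at chr9:45929619-45936058 and Cnn1 at chr9:22099216-22109630, Des at chr1:75360329-75368579 and Lmod1 at chr1:135324807-135368065. Smtn spans chr11:3517523-3540612 and Synpo2 chr3:123076519-123236149. All 10 are protein-coding. Per length, in TPM (transcripts scaled by length and to the same total in each library), which alone allows levels of different genes to be compared, the actin Acta2 was the most abundant of the 10 with a mean of 222 TPM ± 89.1 (SD over 20 mice). Tagln followed with 192 TPM ± 70.2, Actg2 with 150 TPM ± 64.9 and Myh11 with 118 TPM ± 50.2. Cnn1 at 93.4 TPM, Mylk at 89.1 TPM, Des at 75.0 TPM and Smtn at 50.1 TPM came next. Synpo2 at 12.5 TPM and Lmod1 at 9.49 TPM were the lowest. Within mice, 6 of the 9 steps between neighbours in this order held in 20 of 20 mice. Acta2 exceeded Tagln in 19 mice and Mylk exceeded Des in 17, while Cnn1 exceeded Mylk in only 8 of 20, so the order of that pair is not resolved.

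Myh11, Smtn and Synpo2 were read as transcripts whose coding sequences end differently, and these ends are shown because the transcripts did not vary alike among the mice, as described further on. Each line gives, 5′ to 3′ on the minus strand, the coding bases at the end of the transcript that the partner transcript does not share, with the stop codon in capitals. They were read from the GENCODE M21 transcript sequences by the annotated coding positions on GRCm38. The heavy chain transcripts are Myh11-201, with 1972 codons and an end at chr16:14195052-14195184, and Myh11-202, whose inserted exon brings a stop after 1938 codons at chr16:14198058-14198088. They correspond to the tails known as SM1 and SM2 of the smooth muscle myosin heavy chain. The smoothelin transcripts Smtn-203 (923 codons, chr11:3517677-3517827) and Smtn-202 (921 codons, chr11:3520772-3520916) use different last coding exons. Synpo2-207 (1087 codons, chr3:123112402-123112431) runs on into the intron after the exon where Synpo2-202 (1257 codons) splices to a further coding exon of 540 bases, which is not printed.
Myh11-201: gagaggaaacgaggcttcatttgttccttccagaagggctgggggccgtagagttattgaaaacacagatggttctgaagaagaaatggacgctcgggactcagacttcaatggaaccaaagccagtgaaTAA
Myh11-202: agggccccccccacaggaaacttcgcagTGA
Smtn-203: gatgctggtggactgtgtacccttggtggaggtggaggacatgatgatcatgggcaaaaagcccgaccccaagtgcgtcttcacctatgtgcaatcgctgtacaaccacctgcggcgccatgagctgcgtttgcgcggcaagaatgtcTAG
Smtn-202: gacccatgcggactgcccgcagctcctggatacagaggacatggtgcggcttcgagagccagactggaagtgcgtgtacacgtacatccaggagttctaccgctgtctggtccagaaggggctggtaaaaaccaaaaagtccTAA
Synpo2-207: gtgtggaaaccgtcagttgtggaagagTAA

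The 10 genes rose and fell together from mouse to mouse, and the spread inside each group was wide. Levels are given as CPM, the usual count relative to the TMM-scaled library total. Summed over the 10 genes, the level was 2311, 3574, 2216, 2001 and 903 CPM in CD mice 1 to 5, and 2796, 2257, 2143, 1062 and 1889 CPM in TDD mice 1 to 5. In CD+ABX mice 1 to 5 the sum was 2996, 2522, 2512, 2684 and 1563 CPM, and in TDD+ABX mice 1 to 5 it was 1037, 1829, 1026, 2886 and 2870 CPM. The highest sum was 3.96 times the lowest, both in the CD group. CD mouse 5, TDD mouse 4 and TDD+ABX mice 1 and 3 held the 4 lowest levels of each of the 10 genes. CD mouse 2 held the highest level of 9 genes and CD mouse 5 the lowest level of 9. The group means of the sum were 2201 ± 952 CPM in CD, 2029 ± 634 CPM in TDD, 2455 ± 536 CPM in CD+ABX and 1930 ± 925 CPM in TDD+ABX (SD, n = 5), and all 4 groups overlapped.

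The motor gene Myh11 read 606, 1011, 582, 520 and 172 CPM in CD mice 1 to 5, 863, 682, 556, 268 and 542 CPM in TDD, 821, 698, 665, 691 and 364 CPM in CD+ABX and 238, 446, 254, 866 and 850 CPM in TDD+ABX. A single mouse was low in CD, in TDD and in CD+ABX, while the TDD+ABX mice lay apart as 2 low, 1 middle and 2 high. The visceral actin Actg2 read 134, 196, 118, 110 and 32.5 CPM in CD, 163, 122, 143, 52.9 and 110 CPM in TDD, 217, 168, 142, 177 and 90.8 CPM in CD+ABX and 60.9, 120, 45.6, 170 and 201 CPM in TDD+ABX. The same mice were low as for Myh11. Acta2 read 305, 531, 297, 255 and 109 CPM in CD, 406, 304, 278, 136 and 256 CPM in TDD, 372, 323, 332, 349 and 181 CPM in CD+ABX and 131, 242, 121, 369 and 372 CPM in TDD+ABX. In the other members the same 4 mice were lowest. Tagln had group means of 194 ± 87.6 CPM in CD, 197 ± 59.1 CPM in TDD, 230 ± 57.0 CPM in CD+ABX and 187 ± 87.2 CPM in TDD+ABX, and Des 162 ± 79.2, 144 ± 49.1, 210 ± 48.4 and 140 ± 78.0 CPM (SD, n = 5). No group lay clear of another for any of the 10 genes, as the plot of the 10 genes in each mouse shows.

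**Figure D1:**
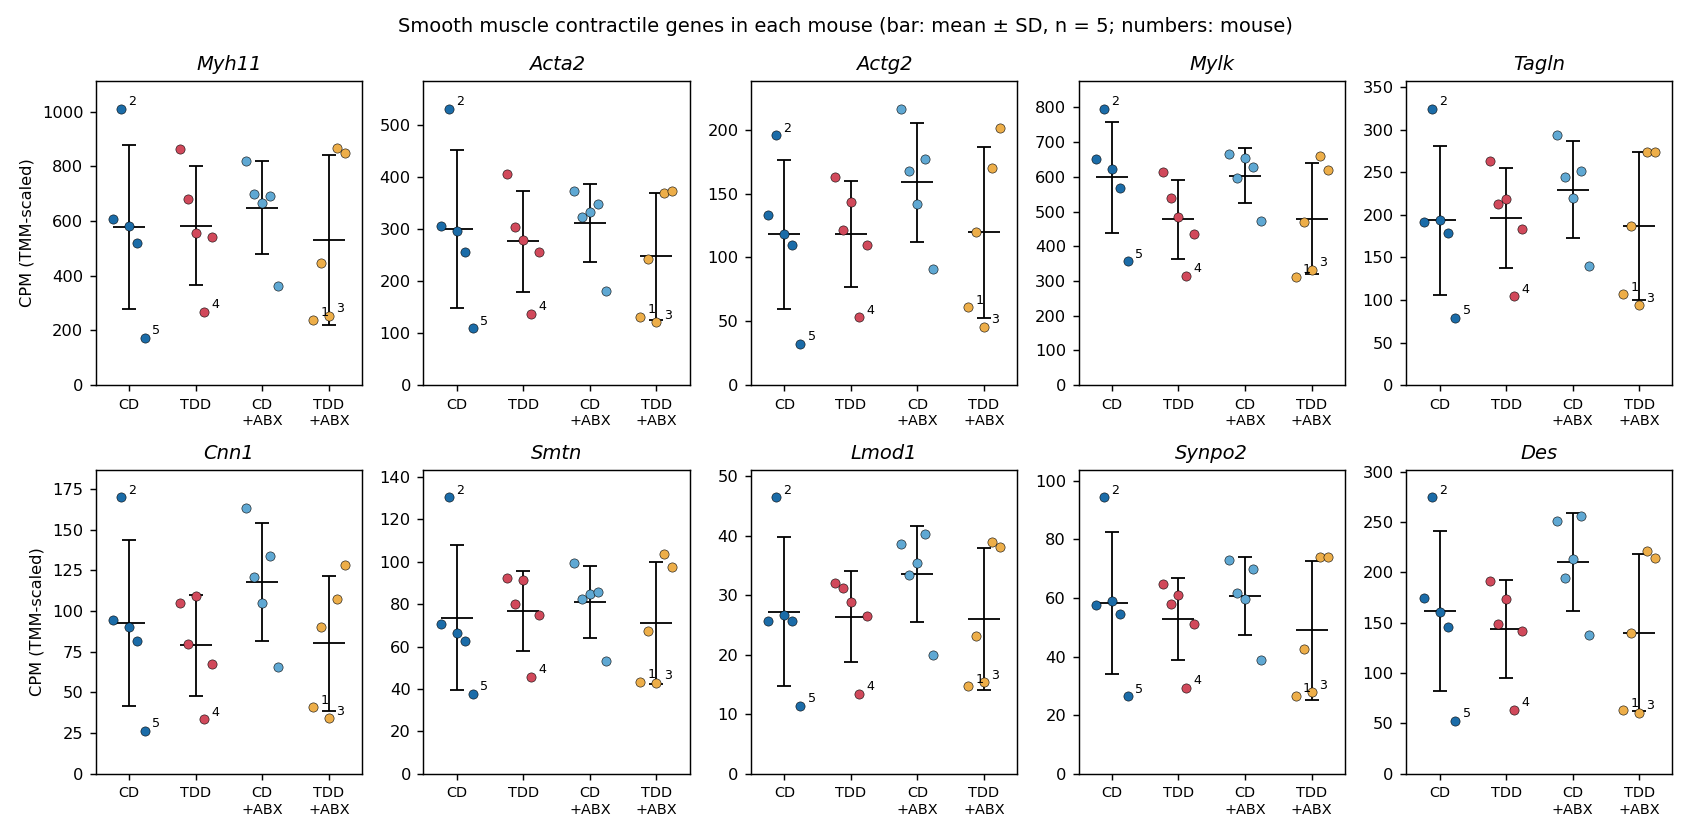
Level of each of the 10 smooth muscle genes in CPM (vertical axis, from 0) in the 20 mice of the 4 groups (horizontal axis). Points are mice, bars are mean ± SD with n = 5, and small numbers name CD mice 2 and 5, TDD mouse 4 and TDD+ABX mice 1 and 3. CD mouse 5, TDD mouse 4 and TDD+ABX mice 1 and 3 are the 4 lowest mice in every panel.

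The size of the swing differed between members. Among the 20 mice the highest level was 6.66 times the lowest for Actg2, 6.41 times for the actomyosin inhibitor Cnn1, 5.88 times for Myh11, 5.24 times for the intermediate filament gene Des and 4.86 times for Acta2. It was 4.13 times for Tagln, 4.08 times for the filament-nucleating Lmod1, 3.58 times for Synpo2 and 3.47 times for Smtn. The kinase gene Mylk had the smallest swing with 2.56 times. On the log2 scale the SD within groups was 0.39 for Mylk and 0.77 for Actg2 with a median of 0.64 over the 10 members, against a median of 0.15 over the 16306 genes tested. Of 9426 genes with a mean of at least 10 CPM, 1.26% had a larger SD within groups than the median member.

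Across the 20 mice the 45 pairs of members had Pearson correlations of log2(CPM + 1) between 0.87 and 0.99, with a median of 0.97, and Spearman correlations between 0.80 and 0.98. After the group means were subtracted, the Pearson correlations lay between 0.94 and 0.99. These values describe the 20 libraries, whose genes share depth and scaling. Per unit of log2 change in the mean of the other 9 members, Mylk changed by 0.60, Smtn by 0.75, Synpo2 by 0.86 and Lmod1 by 0.89. Tagln changed by 0.95 and Acta2 by 1.05, while Myh11 with 1.19, Des with 1.21, Actg2 with 1.25 and Cnn1 with 1.25 were the steepest.

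Neither tryptophan deficiency nor antibiotics moved any of the 10 genes past the test. In TDD against CD mice with intact microbiota, 0 of 10 members were called at an adjusted p (q) under 0.05 and a change of at least 2-fold, against 1.83% of all genes tested, and 0 passed at q under 0.05 alone, against 14.4% of all genes. The log2 fold changes ran from -0.33 (Mylk, SE 0.23, q = 0.37) to 0.06 (Smtn, SE 0.31, q = 0.92) with a median of -0.08, while the median over all genes was 0.01. For 0 of 10 members did the groups not overlap, against 9.58% of all genes. The fit of this and the following comparisons was edgeR's quasi-likelihood test over all 16306 genes in the 20 mice, with Benjamini-Hochberg adjustment. The 95% intervals of these fold changes ran from 0.575 to 1.11 for Mylk and from 0.454 to 1.61 for Cnn1. With CD mouse 5 left out, all 10 members were lower in TDD (median -0.29) and Mylk alone reached an unadjusted p under 0.05 (log2 fold change -0.48, q = 0.17). With CD mouse 2 left out, 9 members were higher in TDD (median 0.21).

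Under antibiotics, all 10 members were lower in TDD+ABX than in CD+ABX mice, and 0 of 10 were called, against 0.307% of all genes, or passed, against 1.64%. The log2 fold changes ran from -0.59 for Des (SE 0.41, q = 0.54) and -0.55 for Cnn1 (SE 0.43, q = 0.60) to -0.19 for Smtn (SE 0.30, q = 0.82). Their median was -0.33, and that of all genes was 0.00 to 2 decimals. The members' median was -0.53 with TDD+ABX mouse 4 or 5 left out, -0.20 without TDD+ABX mouse 1 and -0.19 without TDD+ABX mouse 3. The 10 directions are not 10 separate observations, since TDD+ABX mice 1 and 3 were low for all 10 genes. The interval for Des ran from a fold change of 0.365 to 1.21. The groups overlapped for every member, while 4.78% of all genes had groups that did not.

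With antibiotics on the control diet, all 10 members had a higher fitted level in CD+ABX than in CD mice (9 with upper-quartile scaling, where Mylk was -0.0077), and again 0 were called, against 2.25% of all genes, or passed, against 12.6%. Actg2 had the largest log2 fold change at 0.43 (SE 0.43, q = 0.59), followed by Des at 0.38 (SE 0.41, q = 0.62), and Mylk the smallest at 0.01 (SE 0.23, q = 0.98). The median was 0.21. It was 0.01 with CD mouse 5 left out, when 5 of 10 members were higher, and 0.49 with CD mouse 2 left out, when all 10 were. For 0 members, against 9.74% of all genes, did the groups not overlap. On the tryptophan-deficient diet, TDD+ABX against TDD, 3 members were higher and 7 lower with a median of -0.06. Over the other settings and with single mice left out, between 0 and 10 members were higher and the median ran from -0.24 to 0.12, the lowest without TDD+ABX mouse 4 and the highest without TDD+ABX mouse 3. In the full fit, the extremes were Acta2 at -0.16 (SE 0.38, q = 0.81) and Cnn1 at 0.02 (SE 0.43, q = 0.98). Here 0 were called, against 1.63% of all genes, 0 passed, against 15.4%, and for 0 did the groups not overlap, against 11.0%.

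The interaction of diet and antibiotics was below 0 for all 10 members (9 with upper-quartile scaling, where Mylk was 0.0030), with a median of -0.31 on the log2 scale and SEs of 0.32 to 0.61. The median was -0.58 with CD mouse 2 left out and -0.08 with CD mouse 5 left out, when 3 members were above 0. It ran from -0.42 for Des (q = 0.88) to -0.01 for Mylk (q = 0.997). No member was called or passed, against 0.0245% and 0.0368% of all genes. In all 5 comparisons 0 members had an unadjusted p under 0.05, against 28.4%, 14.7%, 26.5%, 30.5% and 8.87% of all genes in the order given here, and 0 passed by DESeq2 or limma. The plot of changes with their intervals shows that every interval included 0.

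**Figure D2:**
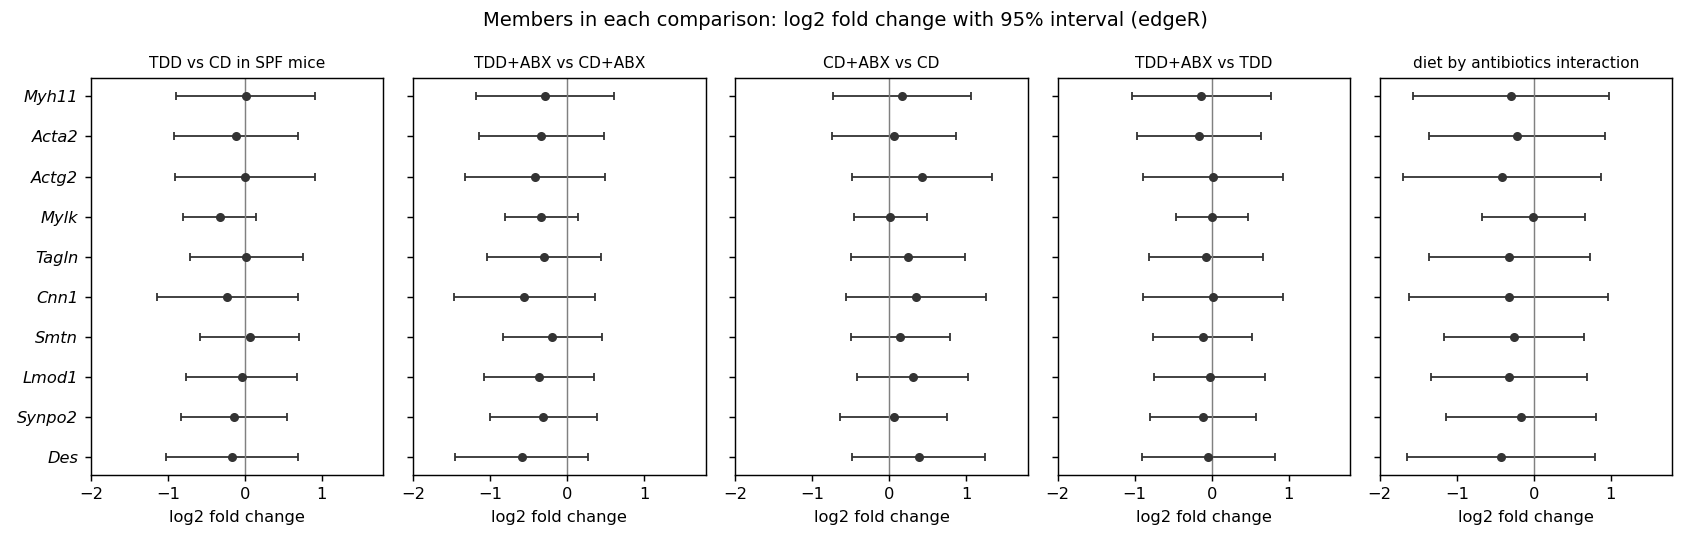
log2 fold change (horizontal axis) of each member (vertical axis) in the 4 pairwise comparisons and the interaction, from the edgeR fit over 20 mice. Points are estimates and bars 95% intervals. All 50 intervals span 0, and the bars of Mylk are the shortest.

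Since the 10 genes follow each other, each was also tested at a given level of the other 9, by adding their mean log2(CPM + 1) as a covariate to the fit over all genes. This test was chosen after the data had been seen. At a given level of the others, Mylk was lower in TDD than in CD mice by 0.32 on the log2 scale (SE 0.065, q = 0.0024), and it was the only member of 10 to pass in that comparison, while 17.7% of all genes passed there with the mean level of the 10 genes as the covariate. 1 of 10 is not above that share, so the value describes Mylk alone and not the members as a group. Mylk itself read 651, 796, 621, 567 and 357 CPM in CD mice 1 to 5, 615, 539, 483, 315 and 435 CPM in TDD, 667, 596, 656, 628 and 473 CPM in CD+ABX and 312, 470, 332, 661 and 621 CPM in TDD+ABX. The levels overlapped, but the CD mice lay above the TDD mice of like muscle level. Mylk remained past the test in 20 of 20 fits without a mouse, with changes from -0.35 to -0.30 and q up to 0.0091. The same difference between TDD+ABX and CD+ABX did not pass (-0.11, SE 0.067, q = 0.44), and the interaction did not either (0.22, SE 0.093, q = 0.45). The difference of Mylk between the diets at a given level of the others was thus not shown to differ with antibiotics. The table holds Mylk-201 and a retained intron, and does not separate the long kinase, the short kinase and telokin, which this locus is known to encode.

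**Figure D3:**
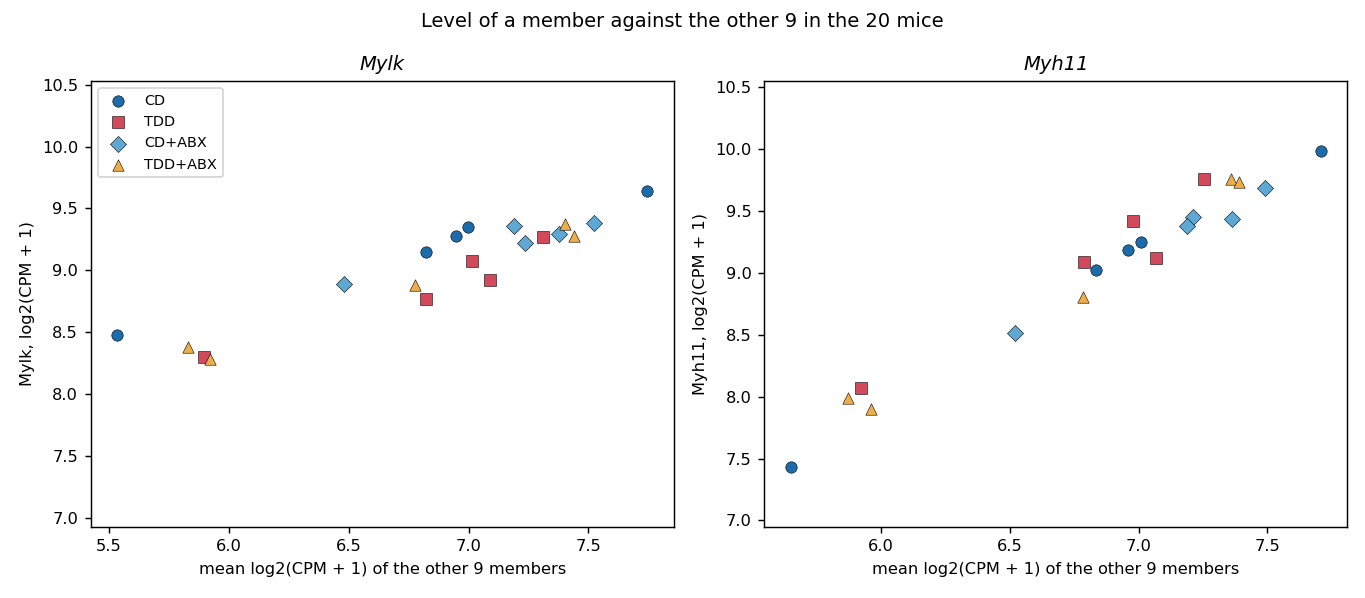
log2(CPM + 1) of Mylk (left) and Myh11 (right) against the mean log2(CPM + 1) of the other 9 members in the 20 mice, with both vertical axes of the same length. Symbols mark the 4 groups. Mylk rises less steeply (0.60 against 1.19 per unit), and the CD mice lie above the TDD mice of similar level for Mylk.

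In CD+ABX against CD mice, Synpo2 was lower at a given level of the other 9 by 0.17 (SE 0.053, q = 0.033) and Acta2 by 0.18 (SE 0.059, q = 0.047). These 2 of 10 members are near the 15.2% of all genes that passed with the muscle level as a covariate. Synpo2 passed in 13 of 20 fits without a mouse. Acta2 passed in 4 of 20 and did not with another scaling of the libraries (q = 0.078) or with the replicate number as a block (q = 0.099). In the other comparisons 0 of 10 members passed, against 2.19% of all genes in TDD+ABX against CD+ABX, 17.5% in TDD+ABX against TDD and 0.0736% for the interaction. The ratio of visceral to alpha actin, Actg2 to Acta2 in TPM, was 0.577 ± 0.093 in CD, 0.633 ± 0.084 in TDD, 0.738 ± 0.083 in CD+ABX and 0.702 ± 0.080 in TDD+ABX (SD, n = 5). CD mouse 5, the mouse lowest in muscle genes, had the lowest ratio at 0.424.

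The transcripts shown above did not follow the muscle level alike. Synpo2-202 ranged from 0.409 TPM in CD mouse 5 to 8.36 TPM in CD mouse 2, whereas Synpo2-207 stayed between 1.65 and 2.77 TPM in all 20 mice. Synpo2-207 therefore made up 45.9% of the gene's summed TPM in CD mouse 5, 35.1% in TDD mouse 4, 30.7% in TDD+ABX mouse 3 and 8.19% in CD mouse 2. Its share had a Pearson correlation of -0.93 (Spearman -0.92) with the mean level of the 10 genes across the 20 mice, while Synpo2-202 had 0.88. Likewise Smtn-203 ranged 7.53-fold and Smtn-202 2.18-fold among the mice, and Smtn-202 held 42.5% of the gene in CD mouse 5 and 14.9% in CD mouse 2. Transcripts not shown above, with a mean share of at least 10%, followed less. Their shares had Pearson correlations with the mean level of the 10 genes between 0.02 (Cnn1-201) and 0.56 (Smtn-206).

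For the myosin heavy chain, both ends rose with the muscle level, but the short-tailed Myh11-202 ranged 9.69-fold and Myh11-201 5.62-fold. Myh11-202 held 15.97% of the gene in CD mouse 5 and 17.6% in TDD+ABX mouse 1, the lowest shares, and 24.7% in CD mouse 2, with a mean of 22.8% and a highest share of 25.3% in CD+ABX mouse 4. The share had a Pearson correlation of 0.84 (Spearman 0.72) with the mean level of the 10 genes. Since the total is the denominator of each share and part of the level, and the transcripts come from the same libraries, these values are given without a test.

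**Figure D4:**
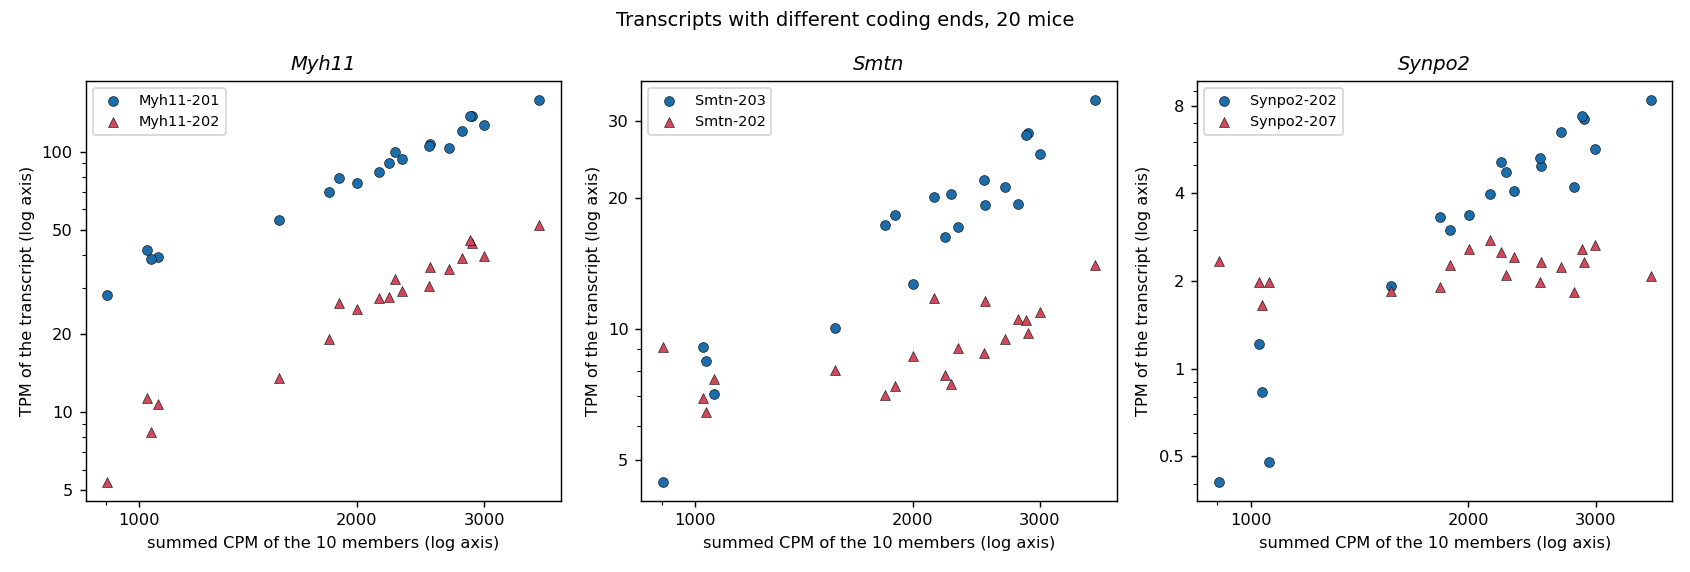
TPM of the paired transcripts of Myh11, Smtn and Synpo2 (vertical log axis) against the summed CPM of the 10 members (horizontal log axis) in the 20 mice. Blue circles rise with the muscle level in each panel, and the red triangles of Synpo2-207 stay between 1.65 and 2.77 TPM.

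Between groups, the shares of 15 transcripts with a mean share of at least 10% were compared in the 4 pairwise comparisons by a two-sided exact permutation test, whose smallest possible p with 5 mice per group is 0.0079. None of the 60 tests passed after adjustment (smallest q = 0.12), and 6 had an unadjusted p under 0.05. Synpo2-204, a further coding transcript, held 40.9% ± 4.21 in CD+ABX and 30.9% ± 3.31 in TDD+ABX mice (SD, n = 5), which did not overlap (exact permutation p = 0.0079, q = 0.12). In TDD mice it held 38.0% ± 4.78, which did not overlap with TDD+ABX either, at the same exact permutation p and q. Actg2-204 held 7.92% ± 4.45 in CD+ABX and 13.6% ± 1.85 in TDD+ABX, also without overlap and at the same exact permutation p and q. In CD+ABX mouse 5 Actg2-204 was listed at 0, and the difference of 5.63 percentage points was 3.65 without that mouse.

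Other genes of contraction and its control, transcriptional regulators included, were followed in 6 lists with 106 genes tested. They split between genes that tracked the 10 members and genes that did not. Of the 106 genes, 33 had a Pearson correlation above 0.9 with the mean standardized level of the members across the 20 mice and 44 one above 0.8, with a median of 0.70, and 25 lay below 0, while the median over all genes with at least 1 CPM was -0.08. Named after their values were seen, caldesmon (Cald1, 0.99), the regulatory light chain Myl9 (0.99), tropomyosin Tpm2 (0.99), the junctional gene Jph2 (0.99), filamin Flna (0.98) and the phosphatase subunit Ppp1r12b (0.98) were among the closest. Other abundant genes of these lists were flat or ran the other way, with Myh14 (-0.36), Tpm3 (-0.39), Tln1 (0.13), Klf4 (-0.33) and Mef2d (0.02), each of them among the 2 most abundant genes of its list. Of the remaining abundant genes, Tpm1 had 0.91, Myl6 0.59, Rhoa -0.45, Atp2a2 0.07 and Pde5a -0.14.

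In TDD against CD mice, 11 of the 106 genes (10.4%) passed, 4 higher and 7 lower, near the 14.4% of all genes. The median log2 fold change over the 106 genes was -0.03. Dystrophin (Dmd), which ties the cytoskeleton to the membrane, was lower by 0.44 (SE 0.08, q = 0.0016), at 27.1 ± 1.81 CPM in CD and 19.96 ± 1.42 CPM in TDD mice without overlap. Transgelin 2 (Tagln2), a relative of Tagln that is not limited to muscle, fell by 0.36 (SE 0.06, q = 9.1e-04), from 267 ± 16.1 to 208 ± 2.24 CPM, while the estimate for Tagln itself was 0.02 (SE 0.35). Fhl1, a LIM-domain scaffold, fell by 0.66, Itga8, an integrin subunit, by 0.68, vimentin (Vim) by 0.49 and the growth factor Bmp4 by 0.32. Fibroblast markers were lower in the same comparison, with 4 of 10 passing, all lower, 3 of them called, and a median of -0.37. Col1a1 read 51.1 ± 9.54 CPM in CD and 23.96 ± 1.85 CPM in TDD mice, and Col3a1 217 ± 49.0 and 97.8 ± 14.3 CPM (SD, n = 5). Macrophage markers were lower too, with 6 of 8 passing, all lower, and a median of -0.45, and 2 of 10 endothelial markers passed, both lower (median -0.07). The part of these cell types in the changes of the named genes was not tested. Of the lists, dense body and adhesion genes had 4 of 36 lower and 0 higher, calcium and receptor genes 2 of 27 higher and 1 lower, transcriptional regulators 2 of 15 higher and 1 lower, thin filament partners 1 of 9 lower, and myosin chains 0 of 7 and kinase and phosphatase genes 0 of 12 passed.

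In TDD+ABX against CD+ABX mice 2 of the 106 genes passed (1.89%, against 1.64% of all genes). Dmd fell by 0.34 (SE 0.08, q = 0.041) and Ptch1, the Hedgehog receptor, rose by 0.39 (SE 0.10, q = 0.0496). Fibroblast markers were lower here too, with 3 of 10 passing, all lower, and a median of -0.29. Col1a1 read 45.4 ± 10.3 CPM in CD+ABX and 27.4 ± 2.77 CPM in TDD+ABX mice, and Col3a1 182 ± 37.6 and 112 ± 19.7 CPM (SD, n = 5). Of 10 endothelial markers Cldn5 passed, lower by 0.59 (q = 0.042). In this comparison 0 of 7 B-cell markers passed at a median of 3.10, although 6 had an unadjusted p under 0.05. Of 8 macrophage markers 0 passed at a median of -0.29, and 5 had an unadjusted p under 0.05. Of 7 adipocyte markers 0 passed at a median of -2.73, and 2 had an unadjusted p under 0.05. Among them Adipoq ranged from 0 to 15.5 CPM in CD+ABX and from 0 to 1.36 CPM in TDD+ABX mice. Cidec and Pck1 had higher means in TDD+ABX. In CD+ABX against CD mice 10 passed (9.43%, against 12.6%), 6 higher and 4 lower. The calcium pump gene Atp2a2 rose by 0.45 (SE 0.08, q = 0.0013), from 254.5 ± 21.7 to 347 ± 11.3 CPM, and the calcium release channel Itpr1 fell by 1.25 (SE 0.22, q = 0.0017), from 66.3 ± 30.1 to 27.8 ± 4.18 CPM. Itpr1 was the only one of the 106 genes called in any pairwise comparison. Ptch1 and Cnn2 were lower, and Pde5a, which breaks down cyclic GMP, was higher. In TDD+ABX against TDD mice 5 passed (4.72%, against 15.4%), with Tagln2 (0.41), Pde5a (0.28), the kinase Dapk3 (0.27) and Rhoa (0.16) higher and Mrtfb (-0.22), a coactivator of smooth muscle genes, lower. None passed for the interaction. T-cell and macrophage markers were lower under antibiotics as well. In CD+ABX against CD mice 5 of 6 T-cell markers passed, all lower, 4 of them called (median -1.52). So did 6 of 8 macrophage markers, all lower (median -0.45). Of 7 B-cell markers 0 passed at a median of -3.33, although all 7 had an unadjusted p under 0.05. The B-cell sum was 74.4 and 110 CPM in CD mice 2 and 3. It was 4.99 to 7.11 CPM in CD mice 1, 4 and 5 and 3.02 to 8.965 CPM in CD+ABX mice. In TDD+ABX against TDD mice 4 of 6 T-cell markers (median -0.88), 3 of 8 macrophage markers (median -0.27) and 2 of 10 endothelial markers (median -0.15) passed, all lower. Epithelial markers moved in both comparisons, with 4 of 12 passing in each, 3 higher and 1 lower, and medians of 0.14 and 0.13. Fabp2, a fatty acid binding protein of enterocytes, read 2848 ± 536 CPM in CD, 6547 ± 1723 CPM in CD+ABX, 3018 ± 381 CPM in TDD and 7050 ± 1513 CPM in TDD+ABX mice (SD, n = 5). Krt19 and Krt8 were higher as well, and Apoa4 was lower by 1.61 in CD+ABX against CD and by 1.13 in TDD+ABX against TDD mice. In CD+ABX against CD mice 1 of 10 fibroblast and 1 of 10 endothelial markers also passed, both lower. So did 1 of 14 enteric neuron markers, 1 of 8 glial markers and 1 of 8 striated muscle genes, all lower. In TDD+ABX against TDD mice 1 of 14 enteric neuron markers passed, lower. There 2 of 8 striated muscle genes and 2 of 6 mesothelial markers also passed, each with 1 higher and 1 lower. The part of these cell types in the changes of the contraction genes was not tested.

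Outside these lists, the 10 genes with a mean of at least 1 CPM whose pattern was most like the members over the 20 mice were Speg (Pearson 0.99), Akap6 (0.99), Cap2, Ptn, Adam33, Rbpms2, Atp2b4, Slc24a3, Dmpk and Wscd2 (all 0.98). Adam33 read 22.4 CPM in CD mouse 2 and 2.78 CPM in CD mouse 5. With group means subtracted, Atp2b4, a plasma membrane calcium pump, and Dmpk, the myotonic dystrophy kinase gene, led with 0.995 and 0.99, and Speg and Fam129a (0.99 each) were also among the closest, as were Faxc, Clmp, Slc2a4, Adam33 and Rbpms2. The genes least like the members were Tmsb10 (-0.75), Dctn4, Taok3, Cnot6 and Stt3a (-0.73 each), and with group means subtracted Dcbld1 (-0.85), Kmt5a, Ctr9, Tm9sf1 and Jarid2. Of all 14048 genes with a mean of at least 1 CPM, members and list genes included, 234 (1.67%) had a correlation above 0.9. Among the 234 were the 10 members and 33 genes of the 6 lists of contraction. A correlation above 0.8 was found for 501 (3.57%), and 0 lay below -0.8. None of the 234 was called or passed in any of the 5 comparisons. Of all genes tested, 1.83%, 0.307%, 2.25%, 1.63% and 0.0245% were called and 14.4%, 1.64%, 12.6%, 15.4% and 0.0368% passed. The 234 were picked by their likeness to the members, none of which passed, so this count is not a separate result.

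Markers of enteric neurons, and some markers of other cell types, moved with the 10 genes. The 14 enteric neuron markers summed to 120 CPM in CD mouse 2 and 35.5 CPM in CD mouse 5, with a range over the 20 mice of 33.9 to 120 CPM, and 10 of the 14 correlated above 0.8 with the members. Vip was their most abundant gene with 10.2 CPM. The pericyte and vascular muscle list summed to 123 to 406 CPM, with 4 of 8 markers above 0.8, and Rgs5 (156 CPM, 0.97) made up 62.2% of it. Pdgfrb (-0.03) and Notch3 (-0.09) of the same list were flat. The 6 markers of interstitial cells of Cajal summed to 71.8 to 143 CPM, with Gja1 (0.91), the most abundant, and Etv1 (0.92) above 0.8 and Ano1 (0.76), Kit (0.58), Cd34 (0.40) and Prkcq (0.36) below. Of the glial list, Erbb3 made up 98.4% of the CPM and did not follow the members (-0.20), while Sox10 (0.87) did at a mean of 1.34 CPM. The striated muscle list summed to 10.003 to 72.6 CPM, with the myosin gene Myh4 at 0 in every mouse and Myh1 and Myh2 at means under 0.05 CPM, and 3 of 17 genes above 0.8, namely Ckm (0.98, 6.63 CPM), Tnnt2 (0.86, 4.57 CPM) and Myh7 (0.80, 0.724 CPM). Its most abundant gene Acta1 did not follow the members (-0.09). Acta1 was highest in CD mouse 3 at 53.5 CPM and TDD mouse 4 at 49.9 CPM. Acta1 read 15.99 ± 21.1 CPM in CD and 1.497 ± 0.37 CPM in CD+ABX mice without overlap (SD, n = 5). It read 22.2 ± 16.2 CPM in TDD and 2.66 ± 1.82 CPM in TDD+ABX mice, also without overlap. Actc1 of the same list read 1.22 ± 0.578 CPM in CD and 0.239 ± 0.093 CPM in TDD mice without overlap. Of the 8 genes of this list tested, 1 was called in TDD against CD and 1 in CD+ABX against CD mice, both lower. Called in TDD+ABX against TDD mice were 2, 1 higher and 1 lower. Of all genes, 1.83%, 2.25% and 1.63% were called in these comparisons, in that order, and 9.58%, 9.74% and 11.0% had groups that did not overlap.

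Markers of the epithelium, endothelium and immune cells followed the members less, and those of the stroma and serosa were mixed. The 10 fibroblast markers summed to 446 to 805 CPM and were high in both CD mouse 2 (805 CPM) and CD mouse 5 (794 CPM), with 0 of 10 above 0.8 and Fbln1 (0.12) the most abundant, while Lum (0.79) and Dpt (0.68) came closest to the members. The endothelial list, led by Pecam1, summed to 123 to 195 CPM with 0 of 10 above 0.8. The epithelial list, led by Apoa1, summed to 19855 CPM in CD mouse 2, the lowest of 20 mice, and to 28069 to 43310 CPM in the other mice, with CD+ABX mouse 5 the highest. Of the mesothelial list (60.1 to 108 CPM), Krt7 (-0.13) made up 81.9% and was flat, but Upk3b (0.77, with 10.6 CPM in CD mouse 2 and 0.189 CPM in CD mouse 5), Lrrn4 (0.68), Wt1 (0.67) and Msln (0.64) rose and fell with the members at low levels. Of the adipocyte list (131 to 520 CPM), Pck1 (-0.36) was the most abundant, and Adipoq (0.58) read 10.7 CPM in CD mouse 2 and 0.105 CPM in CD mouse 5. T cells (16.8 to 95.5 CPM, led by Cd4) and macrophages (126 to 261 CPM, led by C1qa) had no gene above 0.8. The markers named in this and the preceding paragraph were chosen after their values were seen. B-cell markers, led by Cd79a, summed to between 74.4 and 169.5 CPM in CD mice 2 and 3, TDD mice 2 to 5 and TDD+ABX mouse 5, and to 27.1 CPM or less in the other mice. The part of these cell types in the differences between mice was not tested.

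**Figure D5:**
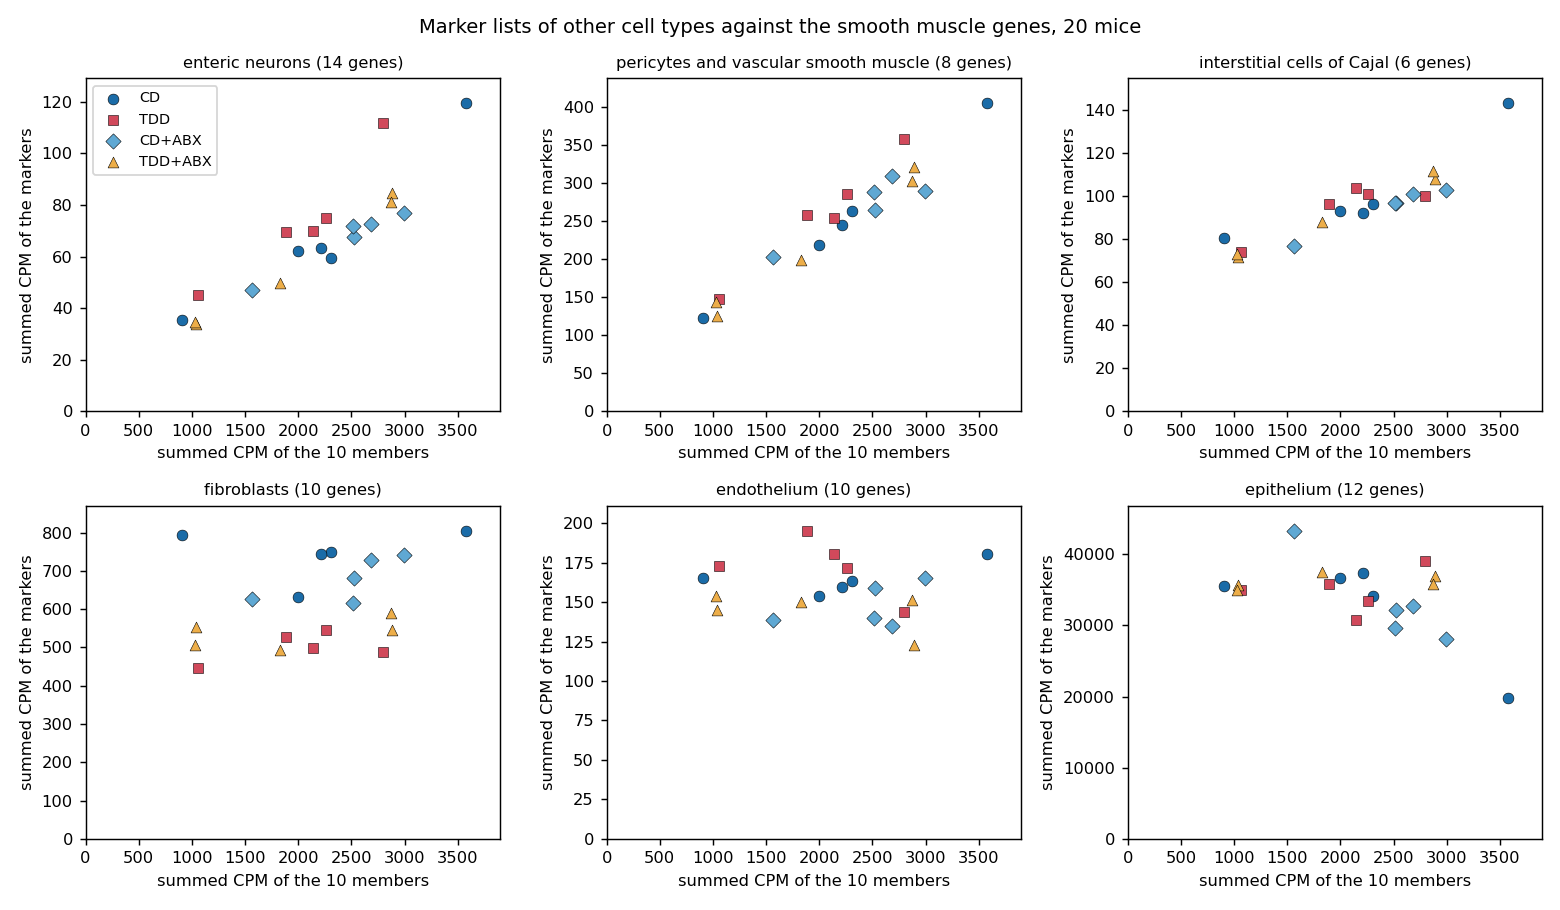
Summed CPM of the markers of 6 other cell types (vertical axes, from 0) against the summed CPM of the 10 smooth muscle genes (horizontal axes, from 0) in the 20 mice, with symbols for the 4 groups. The sums for neurons, pericytes (62.2% of it Rgs5) and interstitial cells rise with the muscle genes, endothelial sums stay between 123 and 195 CPM, and CD mouse 2 at 3574 CPM of muscle genes has the lowest epithelial sum of 19855 CPM.

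The muscle level of each mouse was also entered as a covariate for the other genes. Of all genes tested, 298 were called in TDD against CD mice without it and 303 with it, 275 of them in both. The corresponding numbers were 50, 60 and 43 for TDD+ABX against CD+ABX, 367, 351 and 315 for CD+ABX against CD, and 265, 277 and 253 for TDD+ABX against TDD. Over all genes, 17.7% passed in TDD against CD mice with the covariate, against 14.4% without it, and 17.5% against 15.4% in TDD+ABX against TDD. Of the 36 dense body and adhesion genes 14 passed in TDD against CD mice (7 higher, 7 lower) in place of 4, with Hspb8 (0.72) and Myom1 (0.45) higher and Fhl1 (-0.65) and Itga8 (-0.67) lower. Of the 27 calcium and receptor genes 9 passed (7 higher, 2 lower) in place of 3, with the ryanodine receptors Ryr2 (0.74) and Ryr3 (0.46) and the calcium channel Cacna1c (0.38) higher and Itpr1 (-0.80) lower. Of the 14 enteric neuron markers 6 passed, all higher, in place of 0, among them Stmn2 (0.50, q = 9.3e-04). In TDD+ABX against TDD mice 4 of the 14 passed with the covariate, all lower, in place of 1, with a median of -0.33 and Stmn2 at -0.45 (q = 0.0034). These 2 comparisons share the TDD mice. With the covariate, 0 of the 14 neuron markers and 0 of the 27 calcium and receptor genes passed in TDD+ABX against CD+ABX mice. Of the 36 dense body and adhesion genes 1 passed there, lower, against 2.19% of all genes. The lists were read in this fit after the data had been seen, and the genes named from it were chosen after their values were seen.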

How the data were processed

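Poly-A RNA of terminal ileum from 20 mice was sequenced by the authors, who quantified reads with kallisto 0.44.0 on GRCm38 (submitters' processing notes; mm10 is also named there). The authors deposited estimated counts per transcript and, summed and as whole numbers, per gene, and TPM per transcript, with no scaling between mice. Genes reaching 0.5 CPM in any mouse (16306) were kept, libraries were scaled by TMM, and edgeR 4.0.16 (R 4.3.3) quasi-likelihood fits with robust estimates covered the 4 groups, with Benjamini-Hochberg adjustment over all genes. Genes passed at q under 0.05 and were called if also changed at least 2-fold. The fits were tested on simulated data. TPM was summed over a gene's transcripts and transcript shares tested with scipy 1.17.1. Transcript assignments by kallisto are estimates, least certain where transcripts share most bases. Alternatives were DESeq2 1.42.0, limma 3.58.1, other scalings and filters, log2(TPM + 1) and log2(TPM + 0.1), a replicate block, and leaving out each mouse. The transcripts shown were those whose shares followed the level of the 10 genes most, in both directions. Named genes were the members, per comparison up to 6 list genes with the lowest q, the 2 most abundant per list, and the most and least alike. Some genes that this rule names are not reported here. The 10 genes and all lists were chosen with earlier results of these data known. All 20 sample columns were used. Nothing in the labels ties mice to cages or days, so p-values measure only the spread between these samples.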

Additional observations from a re-analysis of the deposited data

Results flagged for a closer look

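In 104 groups of 5 values (10 genes, their sum and 15 transcript shares in 4 groups), 10 had a mouse standing far from the other 4 relative to the range of its group, where chance alone flags about 1 in 20 groups. Acta2 was low in CD+ABX mouse 5 at 181 CPM, against 323 to 372 CPM in the other 4. CD mouse 5, the lowest of all 20 mice in the summed muscle genes, had 83.1% of Myh11 in Myh11-201 (others 74.6% to 75.9%), 15.97% in Myh11-202 (others 23.2% to 24.7%) and 42.5% of Smtn in Smtn-202 (others 14.9% to 21.7%). TDD mouse 4, also low in muscle genes, had 78.0% in Myh11-201 (others 74.5% to 74.9%) and 21.2% in Myh11-202 (others 24.4% to 24.7%). CD+ABX mouse 5, the lowest of its group, had 99.5% of Actg2 in Actg2-201 (others 89.1% to 90.0%), 0 in Actg2-204 (others 9.17% to 10.3%) and 22.2% of Synpo2 in Synpo2-207 (others 14.5% to 16.4%). TDD mouse 1 had 46.4% of Synpo2 in Synpo2-204 (others 34.9% to 36.6%). The shares of a gene sum to the whole, so Myh11-201 and Myh11-202, and Actg2-201 and Actg2-204, are not separate observations.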

How the results depend on the processing

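Precision was limited, with SEs of 0.23 to 0.43 on the log2 scale for the 10 genes in the pairwise comparisons of 5 mice per group. In each of these comparisons the median SE over all genes was 0.12. Members called or passed were 0 of 10 in every comparison with DESeq2, limma, other scalings and filters, the replicate block, the fit of only the groups compared (not run for the interaction) and each of 20 mice left out. The smallest q over these settings was 0.17, 0.36, 0.27, 0.57 and 0.57 in the 5 comparisons, in the order of the report. Of 50 changes of single members, 23 kept their sign throughout, among them all 10 in TDD+ABX against CD+ABX, whose medians ran from -0.53 to -0.19. In the other 27 the cause was not tested.

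Signs turned as follows in other settings. For TDD against CD, Actg2 (0.00) was -0.013 with upper-quartile scaling, -0.0055 without a filter and -0.0073 with 0.5 CPM in at least 5 mice, Myh11 was -0.0077 with upper-quartile scaling, and Lmod1 was 0.053 with limma-voom and 0.018 with the replicate block. For CD+ABX against CD, Mylk was -0.0077 with upper-quartile scaling. For TDD+ABX against TDD, limma-voom gave -0.096 for Actg2, -0.044 for Cnn1 and -0.021 for Mylk, upper-quartile scaling -0.0047 for Mylk, and log2(TPM + 1) and log2(TPM + 0.1) 0.026 and 0.024 for Lmod1. The interaction of Mylk was 0.0030 with upper-quartile scaling, 0.0018 without a filter, 0.0014 with 0.5 CPM in at least 5 mice and 0.033 with either TPM scale.

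Without 1 mouse, signs turned within these ranges. For TDD against CD they were -0.34 to 0.19 (Acta2), -0.25 to 0.25 (Actg2), -0.23 to 0.30 (Myh11), -0.19 to 0.28 (Tagln), -0.40 to 0.10 (Des), -0.47 to 0.10 (Cnn1), -0.11 to 0.36 (Smtn), -0.25 to 0.23 (Lmod1) and -0.34 to 0.093 (Synpo2). For CD+ABX against CD they were -0.15 to 0.37 (Acta2), -0.066 to 0.46 (Myh11), -0.023 to 0.45 (Smtn), -0.13 to 0.30 (Synpo2) and -0.12 to 0.14 (Mylk). For TDD+ABX against TDD they were -0.34 to 0.023 (Acta2), -0.24 to 0.23 (Actg2), -0.37 to 0.061 (Myh11), -0.24 to 0.11 (Tagln), -0.25 to 0.16 (Des), -0.20 to 0.22 (Cnn1), -0.27 to 0.031 (Smtn), -0.20 to 0.14 (Lmod1), -0.30 to 0.054 (Synpo2) and -0.12 to 0.14 (Mylk). For the interaction they were -0.51 to 0.0034 (Acta2), -0.39 to 0.03 (Synpo2) and -0.14 to 0.14 (Mylk).

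Over all genes, the numbers called were 298, 50, 367, 265 and 4 in the 5 comparisons, and ran from 140 to 314, 25 to 98, 131 to 406, 98 to 313 and 0 to 51 over the other settings and from 215 to 360, 25 to 59, 272 to 391, 163 to 421 and 0 to 12 without 1 mouse. Mice of different groups share replicate numbers but are not shown to be pairs. Of 30 same-number pairs 6 correlated above 0.1 (-0.42 to 0.29), and a mouse correlated best with its own number in 7 of 60 checks. With the replicate block 240, 27, 304, 243 and 0 genes and 0 members were called.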
